A study of Drosophila melanogaster and Drosophila simulans and Drosophila yakuba with 8 samples.

Results

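Testes in which the RNA of Caf40 was targeted by RNA interference were compared with wildtype testes of Drosophila melanogaster, gene by gene, in 4 of the 8 libraries of the series. The Caf40 knockdown group held 2 libraries of genotype nosGal4>>UAS-Caf40-RNAi, and the wildtype group held 2 libraries. Per the labels, both groups were of strain Oregon-R and consisted of testes dissected from adults 1 to 7 days old, and messenger RNA was sequenced as single-end Illumina reads. The nos-Gal4 driver directs the construct to the germ line, so the somatic cells of the testis were not its target. A library carrying the driver alone was not analysed here. The 2 libraries of testes in which Zeus was targeted with the same driver (genotype nosGal4>>UAS-Zeus-RNAi) are given beside single genes where they bear on a result. The comparison covered 10248 of the 15178 genes listed, which are those with a mean RPKM (reads scaled by exon length and by mapped reads of the library) of at least 1 over the 4 libraries, and 8997 of them have a current gene symbol. Of the others, 3765 had reads but a lower mean and 1165 had no read in these libraries.

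Caf40 is named Rcd-1 in the current annotation. Its protein is a core subunit of the CCR4-NOT complex, which removes poly(A) tails from transcripts and so prepares them for translational silencing and decay. In the fly testis, germ line stem cells give rise to spermatogonia, which divide by mitosis, grow as spermatocytes while they transcribe most of the genes needed later, pass through meiosis and elongate as spermatids with little new transcription. Zeus is Rcd-1r, an intronless retrocopy of Rcd-1 that is expressed in the testis.

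The Caf40 knockdown libraries held 12837755 and 18070275 gene reads, and the wildtype libraries held 24429722 and 22582003. A 1 kb transcript with 3 reads would have an RPKM of 0.120 to 0.228 in these libraries. The correlation of log2(RPKM + 1) between replicates, across genes, was 0.992 in the Caf40 knockdown and 0.996 in wildtype. Knockdown replicate 1 lay farther from wildtype than replicate 2, with a median log2 ratio of 1.18 against 0.99 over the genes that rose and -0.70 against -0.60 over those that fell. Whether replicates are separate batches of flies is not stated in the labels. The p-values then reflect no more than how these samples scatter, and that scatter may be technical. These are bulk samples, so fewer cells of a type and less RNA per cell cannot be told apart. All tests below are edgeR quasi-likelihood tests with Benjamini-Hochberg adjustment over the 10248 genes and a threshold of 0.05, with n = 2 libraries per group. Levels are given as RPKM in each library, in the order of the replicates. Fold changes are fitted on read counts after TMM scaling and therefore differ somewhat from ratios of RPKM.

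The targeted gene was lower in the Caf40 knockdown libraries, and its retrocopy was higher in them. Rcd-1 (FBgn0031047, on the X chromosome) measured 25.7 and 23.3 RPKM in the knockdown and 98.2 and 95.1 RPKM in wildtype (a log2 fold change of -2.21 with SE 0.12 and adjusted p = 7.38e-13), so that 0.253 of the mean wildtype RPKM was left. Rcd-1r (FBgn0032089, on arm 2L) measured 135 and 114 RPKM in the Caf40 knockdown and 22.2 and 26.4 RPKM in wildtype (a log2 fold change of 2.12 with SE 0.12 and adjusted p = 2.22e-12). The groups did not overlap for either gene. Thus the knockdown libraries held more transcript of Zeus than of Caf40, whereas the wildtype libraries held more of Caf40 than of Zeus, on the length-scaled RPKM scale. In the Zeus knockdown libraries Rcd-1 measured 79.3 and 77.9 RPKM and Rcd-1r 4.05 and 4.04 RPKM.

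**Figure D1:**
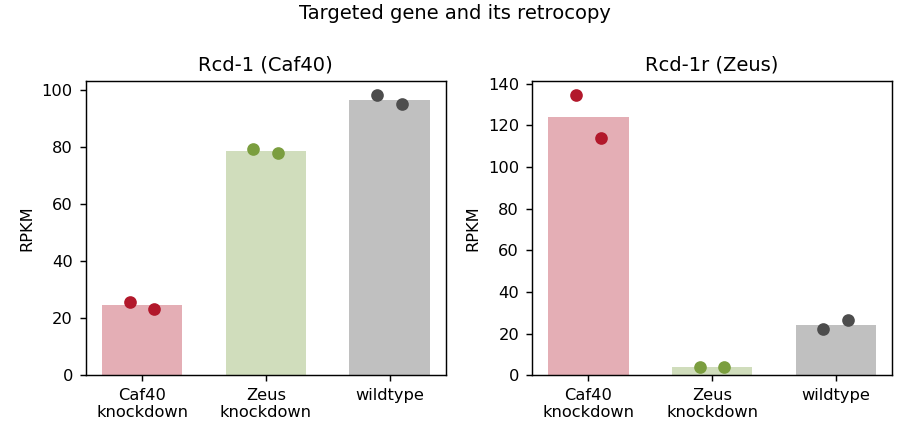
RPKM of the targeted gene Rcd-1 (Caf40) and of its retrocopy Rcd-1r (Zeus) in the Caf40 knockdown, the Zeus knockdown and wildtype. Points are libraries (2 per group) and bars are group means; the Caf40 knockdown is lowest for Rcd-1 and highest for Rcd-1r.

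Reads that span an exon junction give a count for Rcd-1 to which the intronless copy cannot add. Rcd-1 had 36 and 56 junction reads out of 551 and 698 gene reads in the knockdown, and 327 and 260 junction reads out of 4008 and 3595 gene reads in wildtype. Scaled to 1000000 gene reads in each library, these were 2.80 and 3.10 junction reads in the knockdown and 13.4 and 11.5 in wildtype, so they were lower in the knockdown at matched depth, as all reads of the gene were. Rcd-1r had 0 junction reads in all libraries, against 2103 and 2487 gene reads in the knockdown and 661 and 729 in wildtype. The treatment of reads that fit both copies is not known from the labels.

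Of the other CCR4-NOT genes, some were higher and some lower, and the scaffold was not called. Rga, the fly NOT2 subunit, measured 33.8 and 28.8 RPKM in the knockdown and 11.1 and 11.2 RPKM in wildtype (a log2 fold change of 1.25 with SE 0.11 and adjusted p = 1.12e-09), and Not3 measured 54.4 and 47.2 RPKM in the knockdown and 22.5 and 23.5 RPKM in wildtype (a log2 fold change of 0.91 with SE 0.12 and adjusted p = 3.39e-07). Both rose without overlap between the groups. twin, the CCR4 deadenylase, fell, with 163 and 178 RPKM in the knockdown and 311 and 298 RPKM in wildtype (a log2 fold change of -1.07 with SE 0.14 and adjusted p = 6.21e-07). Pop2, the CAF1 deadenylase, and the scaffold Not1 did not pass the test, with log2 fold changes of -0.23 and -0.07. Over the 9 members, Rcd-1 and Rcd-1r included, 4 rose and 3 fell, and the median log2 fold change was -0.07. That median was 0.16 with library-total scaling, 0.16 with limma and 0.01 without wildtype replicate 1, so its sign depended on the setting.

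Most genes tested differed between the Caf40 knockdown and wildtype. Of 10248 genes, 8043 were called (78.5%), of which 4211 rose (41.1%) and 3832 fell (37.4%). Changes of at least 2-fold were called in 3925 genes (38.3%), 2134 upward (20.8%) and 1791 downward (17.5%), and changes of at least 4-fold in 487 upward (4.75%) and 287 downward (2.8%). The groups did not overlap for 9252 genes (90.3%). The median log2 fold change over all genes was 0.07 and the median of its absolute value was 0.78. With so many genes called, the counts for each gene group below are read against these shares. The balance of rises and falls depended on the scaling. Rises made up 52.4% of the calls here, 61.9% with library-total scaling, which shifted the median by 0.22, 62.3% with limma (shift 0.19) and 39.7% when libraries were set to equal median RPKM (shift -0.30).

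The direction varied with how abundant a transcript was. Genes were split into 5 classes of equal size by mean RPKM over the 4 libraries. Among the 2050 most abundant (61.9 RPKM and above), 18.8% rose and 63.7% fell, with a median log2 fold change of -0.52. Among the 2049 genes between 4.73 and 11.4 RPKM, 58.1% rose and 22.6% fell, with a median of 0.53. Of all gene reads, 19.4% and 20.6% in the knockdown and 22.4% and 22.3% in wildtype fell on the top 100 genes of each library.

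**Figure D2:**
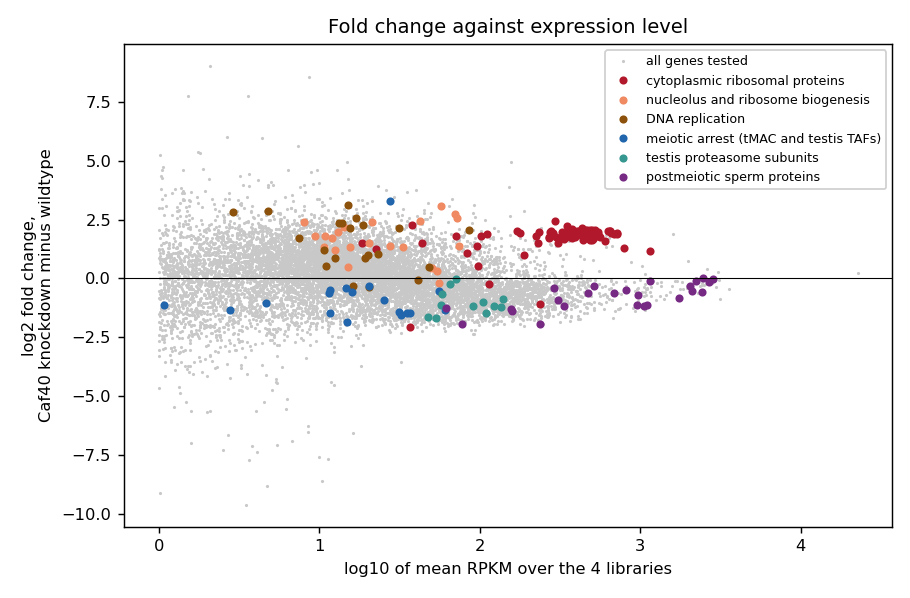
Log2 fold change, Caf40 knockdown minus wildtype, against log10 of the mean RPKM over the 4 libraries, for 10248 genes (grey) with members of 6 gene lists in colour. Cytoplasmic ribosomal protein genes form a group near 1.90 at high levels, where most other genes, including postmeiotic sperm genes, lie below 0.

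Several genes of the earliest germ line stages were many times higher in the knockdown. bam, whose protein ends the mitotic divisions of spermatogonia, measured 41.03 and 32.1 RPKM in the knockdown and 3.41 and 3.23 RPKM in wildtype (a log2 fold change of 3.22 with SE 0.13 and adjusted p = 1.96e-14). zpg, the germ line gap junction protein through which early germ cells contact the soma, measured 60.8 and 48.1 RPKM in the knockdown and 4.301 and 4.14 RPKM in wildtype (a log2 fold change of 3.45 with SE 0.13 and adjusted p = 9.23e-15). The lowest knockdown library was above the highest wildtype library for both genes. The translational repressors pum and brat and the JAK/STAT transcription factor Stat92E also rose, with log2 fold changes of 1.55, 1.62 and 1.11. bgcn, the partner of bam, fell instead, with 35.2 and 33.04 RPKM in the knockdown and 46.9 and 45.3 RPKM in wildtype (log2 fold change -0.67, adjusted p = 2.49e-05), and so did mei-P26 and chinmo (-0.92 and -0.79). These last 3 genes were named after their values were seen. Of 11 stem cell and spermatogonial genes tested, 7 rose, 5 of them at least 2-fold (45.5%, beside 20.8% of all genes), 3 fell and the median log2 fold change was 0.69. A further gene of the list, osk, was below the RPKM minimum.

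The piRNA pathway, which silences transposons in the germ line, followed with rises in 12 of 19 genes (beside 41.1% of all genes). Of these, 6 were at least 2-fold (beside 20.8%), and 3 genes fell (median log2 fold change 0.81). shu, a cochaperone for loading piRNAs, measured 43.2 and 34.7 RPKM in the knockdown and 3.23 and 3.51 RPKM in wildtype (a log2 fold change of 3.29 with SE 0.13 and adjusted p = 1.57e-14). tej, a Tudor-domain protein of the nuage, measured 25.3 and 17.7 RPKM in the knockdown and 1.52 and 1.86 RPKM in wildtype (log2 fold change 3.43), and aub, a PIWI-family Argonaute, 88.3 and 69.7 RPKM in the knockdown and 11.2 and 12.4 RPKM in wildtype (log2 fold change 2.51). The heterochromatin protein rhi and the Tudor-domain gene SoYb rose by log2 2.89 and 1.48.

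DNA replication genes rose nearly throughout the list. RnrL, the large subunit of ribonucleotide reductase that makes deoxynucleotides, measured 29.7 and 25.5 RPKM in the knockdown and 2.61 and 2.83 RPKM in wildtype (a log2 fold change of 3.11 with SE 0.12 and adjusted p = 1.57e-14). The replicative helicase subunits Mcm2, Mcm5 and Mcm7 rose by log2 2.38, 2.37 and 2.27, and the clamp loader subunit RfC38 by 2.58. Of 21 replication genes, 18 rose, 14 of them at least 2-fold (66.7%, beside 20.8% of all genes), 2 fell and the median log2 fold change was 1.71. It lay between 1.23 and 1.93 under the 13 alternatives.

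Checkpoint and repair genes rose in 12 of 17 cases (beside 41.1% of all genes), 10 of them at least 2-fold (beside 20.8%). Of the list 3 fell, and the median was 1.24. Claspin, a mediator of the replication checkpoint, was among the 14 largest rises ranked below. It measured 8.85 and 6.97 RPKM in the knockdown and 0.399 and 0.326 RPKM in wildtype (a log2 fold change of 4.20 with SE 0.17 and adjusted p = 2.04e-14). p53, the DNA damage transcription factor, measured 29.4 and 23.3 RPKM in the knockdown and 3.93 and 3.66 RPKM in wildtype (log2 fold change 2.55). The double-strand break nuclease gene mre11, the excision repair nuclease gene mei-9 and the Rad54 homologue okr rose by log2 1.68, 1.72 and 1.26. Genes of the mitotic cycle were more mixed, with 14 of 25 rising and 9 falling, beside 41.1% and 37.4% of all genes. Of the falls, 0 reached 2-fold (median of the list 0.49). Cdk2, the cyclin-dependent kinase of S phase, measured 21.1 and 20.5 RPKM in the knockdown and 3.59 and 3.53 RPKM in wildtype (a log2 fold change of 2.31 with SE 0.15 and adjusted p = 9.65e-12). Cdk1, which drives entry into division, rose by log2 1.11, the cytokinesis genes pav and sti by 1.87 and 1.36, and the G1 cyclin gene CycD by 2.13.

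**Figure D3:**
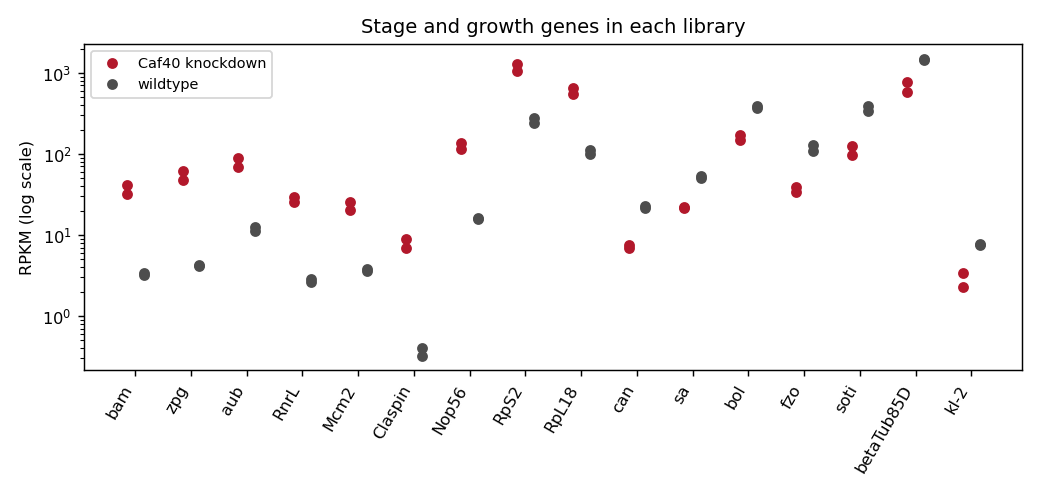
RPKM on a log scale of 16 genes of germ line stages and growth, in the 2 Caf40 knockdown libraries (red, left of each pair) and the 2 wildtype libraries (grey). Genes from bam to RpL18 are higher in both knockdown libraries than in both wildtype libraries, and genes from can to kl-2 are lower. The 16 genes were picked from the lists, so this split follows from the choice. Members of those lists that went the other way, such as bgcn, mei-P26, chinmo, Nxt1, tef and sunn, are not shown.

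Nearly all genes for ribosomal proteins were higher in the knockdown. Of 81 genes named as cytoplasmic ribosomal proteins or as like them, 78 rose, 77 of them at least 2-fold (95.1%, beside 20.8% of all genes), 2 fell and the median log2 fold change was 1.90. RpS2 measured 1283 and 1057 RPKM in the knockdown and 244 and 278 RPKM in wildtype (a log2 fold change of 1.93 with SE 0.14 and adjusted p = 8.66e-11), and RpL18 measured 645 and 547 RPKM in the knockdown and 101 and 112 RPKM in wildtype (a log2 fold change of 2.25 with SE 0.13 and adjusted p = 2.35e-12). Summed over the list, the level was 53357 and 46028 RPKM in the knockdown libraries and 11424 and 13155 RPKM in the wildtype libraries. The median stayed between 1.59 and 2.12 under the alternatives, and at least 77 members rose under each. The list also holds copies of some subunits. Of members with the smallest p, RpS5b rose by log2 2.43, RpLP0-like by 2.28, RpL36A by 2.07 and RpS15Aa by 1.91, while the 2 that fell were the copies RpS28a and RpL10Aa (-2.04 and -1.07, named after their values were seen). Of genes with a symbol that are not mitochondrially encoded, the 8 largest increases in mean RPKM included the ribosomal protein genes RpL41, RpS2, RpS27A, RpS3A, RpL21 and RpLP1. These transcripts are short and near-identical pseudogenes or copies could share reads with them.

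Genes that build ribosomes were higher as well. NHP2, a protein of H/ACA small nucleolar ribonucleoproteins, measured 108 and 101 RPKM in the knockdown and 10.7 and 10.5 RPKM in wildtype (a log2 fold change of 3.06 with SE 0.12 and adjusted p = 1.11e-14). The box C/D proteins Nop56 and nop5, the nucleolar chaperone Nopp140 and Polr1A, the largest subunit of RNA polymerase I, rose by log2 2.74, 2.59, 2.46 and 2.17. Of 23 nucleolar genes, 21 rose, 18 of them at least 2-fold (78.3%, beside 20.8% of all genes), 1 fell and the median was 1.52. Aminoacyl-tRNA synthetases, which charge tRNAs, rose in 26 of 31 cases (beside 41.1% of all genes), 21 of them at least 2-fold (beside 20.8%). Another 4 fell, and the median of the list was 1.27. HisRS measured 56.2 and 46.01 RPKM in the knockdown and 8.26 and 10.3 RPKM in wildtype (a log2 fold change of 2.23 with SE 0.13 and adjusted p = 1.51e-12), and ValRS, AspRS and the mitochondrial LeuRS-m and IleRS-m rose by log2 1.87, 1.62, 1.84 and 2.69. Of 68 mitochondrial ribosomal protein genes, 49 rose (beside 41.1% of all genes), 18 of them at least 2-fold (beside 20.8%), and 7 fell, with a median of 0.81. mRpL1, for example, measured 37.3 and 31.1 RPKM in the knockdown and 9.18 and 11.1 RPKM in wildtype (log2 fold change 1.52).

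Genes that spermatocytes need to switch on the late programme were lower. Mutants of the testis TAFs are known for germ cells that arrest before the meiotic divisions. can, a testis TAF, measured 7.58 and 6.92 RPKM in the knockdown and 21.7 and 23.03 RPKM in wildtype (a log2 fold change of -1.86 with SE 0.11 and adjusted p = 3.66e-12), and sa, another testis TAF, measured 21.99 and 21.7 RPKM in the knockdown and 50.1 and 52.98 RPKM in wildtype (a log2 fold change of -1.47 with SE 0.11 and adjusted p = 1.41e-10). tbrd-2 and tbrd-3, testis bromodomain proteins, fell by log2 changes of -1.46 and -1.56. Of 18 genes of the list, 17 fell, 10 of them at least 2-fold (55.6%, beside 17.5% of all genes), and the median was -1.08. The exception was Nxt1, a general messenger RNA export factor, which rose with 57.1 and 44.5 RPKM in the knockdown and 3.56 and 5.15 RPKM in wildtype (a log2 fold change of 3.31 with SE 0.18 and adjusted p = 1.09e-12). aly, a subunit of the testis meiotic arrest complex and named after its values were seen, measured 11.9 and 9.501 RPKM in the knockdown and 12.4 and 12.7 RPKM in wildtype (log2 fold change -0.47, adjusted p = 0.00105).

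The list drawn up for meiosis itself was split. Of its 15 genes, 6 rose and 8 fell, beside 41.1% and 37.4% of all genes, with a median of -0.40. These counts include Syn, the synapsin gene (log2 fold change 2.05), and nes, the nessy gene (-0.40), which are not meiosis genes. They also include the testis TAF sa, already counted above. The genes tef and sunn, needed for chromosome pairing and sister cohesion in meiosis, rose, with 14.02 and 11.03 RPKM in the knockdown and 2.71 and 2.35 RPKM in wildtype for tef (a log2 fold change of 2.06 with SE 0.15 and adjusted p = 6.29e-11) and a log2 fold change of 2.42 for sunn. bol, an RNA-binding protein needed for the meiotic divisions and named after its values were seen, fell, with 149 and 171 RPKM in the knockdown and 386 and 374 RPKM in wildtype (a log2 fold change of -1.48 with SE 0.15 and adjusted p = 8.76e-09).

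Transcripts used after meiosis were lower or not called. fzo, the mitofusin of spermatids, measured 34.1 and 39.2 RPKM in the knockdown and 129 and 109 RPKM in wildtype (a log2 fold change of -1.93 with SE 0.14 and adjusted p = 4.35e-11). soti, which regulates caspase activation in spermatids, measured 97.7 and 127 RPKM in the knockdown and 389.7 and 337 RPKM in wildtype (a log2 fold change of -1.92 with SE 0.15 and adjusted p = 1.81e-10). Prtl99C, a sperm chromatin protein, and the sperm aminopeptidase S-Lap5 fell by log2 changes of -1.38 and -1.29. Of 25 postmeiotic genes, 19 fell, 9 of them at least 2-fold, 0 rose and the median was -0.63. The 6 not called were ocn, Mst87F and the Mst84D genes, sperm-tail proteins among the most abundant transcripts here, named after their values were seen. Mst87F, for example, measured 2927 and 3215 RPKM in the knockdown and 2567 and 2708 RPKM in wildtype (log2 fold change -0.01, adjusted p = 0.952). The comet and cup genes, which are transcribed late in spermatids, fell in 11 of 17 cases, 4 of them at least 2-fold, and rose in 0 (median -0.68). Of all genes 37.4% fell, 17.5% at least 2-fold, and of the most abundant class 63.7% fell, 24.9% at least 2-fold. Most comet and cup genes lay in that class, so their falls were near the share of genes of like abundance. cola and swif had identical values in each library and were counted as separate members. sunz measured 23.3 and 35.7 RPKM in the knockdown and 99.3 and 91.1 RPKM in wildtype (a log2 fold change of -1.90 with SE 0.15 and adjusted p = 2.24e-10), and r-cup, wa-cup and c-cup changed by log2 -1.09, -1.15 and -0.98.

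Most genes listed for the sperm flagellum fell. hmw, a protein of the sperm axoneme, measured 72.7 and 94.8 RPKM in the knockdown and 248 and 234 RPKM in wildtype (a log2 fold change of -1.75 with SE 0.15 and adjusted p = 5.87e-10). The radial spoke gene Rsph1 and the dynein heavy chain gene Dhc36C changed by log2 -1.60 and -1.56. betaTub85D, the testis beta-tubulin of meiotic spindles and axonemes, measured 587 and 773 RPKM in the knockdown and 1492 and 1434 RPKM in wildtype (a log2 fold change of -1.33 with SE 0.17 and adjusted p = 4.34e-07), one of the largest falls in mean RPKM. Of 17 axoneme genes tested, 15 fell, 9 of them at least 2-fold (52.9%, beside 17.5% of all genes), and the median was -1.06. Of the most abundant class, which holds hmw and betaTub85D, 63.7% fell, 24.9% at least 2-fold. The 1 rise was Sdic3, one of several near-identical Sdic copies among which the split of reads is uncertain. Of 7 genes on the Y chromosome tested, the 5 listed protein-coding genes fell (median -0.75). The Suppressor of Stellate RNA gene Su(Ste):CR40820, one of many near-identical copies and named after its values were seen, rose (log2 fold change 1.81), and another such copy was not called. kl-2, an axonemal dynein heavy chain gene also counted above, measured 2.29 and 3.35 RPKM in the knockdown and 7.73 and 7.44 RPKM in wildtype (a log2 fold change of -1.64 with SE 0.14 and adjusted p = 1.01e-09). ORY, a Y-linked coiled-coil gene, measured 2.604 and 3.46 RPKM in the knockdown and 8.18 and 8.03 RPKM in wildtype (log2 fold change -1.62).

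**Figure D4:**
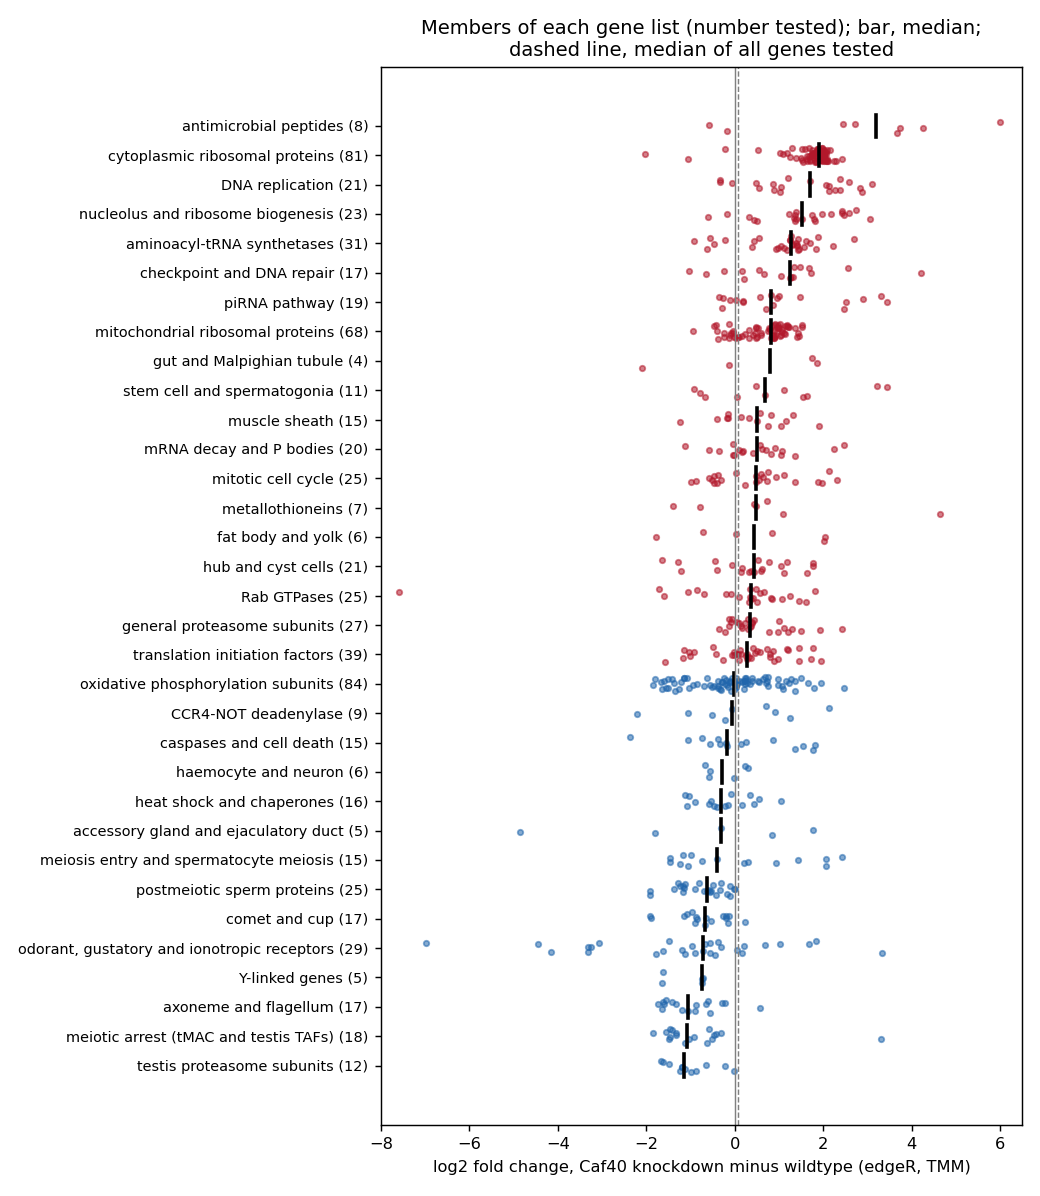
Log2 fold change, Caf40 knockdown minus wildtype, of each tested member of 33 gene lists, with the median of each list as a bar and the median of all genes tested, 0.07, as a dashed line. Ribosomal, replication and nucleolar lists lie to the right, and meiotic arrest, axoneme and testis proteasome lists to the left.

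Several protein complexes have 1 subunit gene used in most cells and a second, testis-type copy, and in respiratory complexes, the proteasome and eIF3 most copies fell while most partners rose. Rpn12R, a testis copy of a proteasome lid subunit, measured 98.8 and 116 RPKM in the knockdown and 170 and 170.4 RPKM in wildtype (log2 fold change -0.89), while its partner Rpn12 measured 115.3 and 103 RPKM in the knockdown and 18.3 and 16.3 RPKM in wildtype (a log2 fold change of 2.42 with SE 0.12 and adjusted p = 1.64e-13). ND-49L, a copy of a complex I subunit, measured 42.4 and 52.9 RPKM in the knockdown and 154 and 141 RPKM in wildtype (a log2 fold change of -1.85 with SE 0.14 and adjusted p = 7.39e-11), while ND-49 measured 59.4 and 50.7 RPKM in the knockdown and 18.8 and 20.1 RPKM in wildtype (log2 fold change 1.27). For both pairs the copy was the more abundant transcript in wildtype, and the partner was close to or above it in the knockdown. eIF3g2, a copy of a translation initiation subunit, measured 27.9 and 31.2 RPKM in the knockdown and 73.3 and 78.4 RPKM in wildtype (log2 fold change -1.58), and eIF3g1 measured 78.9 and 64.1 RPKM in the knockdown and 22.2 and 22.2 RPKM in wildtype (log2 fold change 1.45). These pairs were matched by name after the values were seen, so their counts are a description with no test.

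Over 31 such pairs, 28 copies fell and 1 rose, while 29 partners rose and 0 fell, and in 26 pairs the copy fell and the partner rose. Some copies share a partner, so there were 26 distinct partners. The median log2 fold change was -1.19 for the copies and 1.16 for the partners, and the copy had the lower value in each of the 31 pairs. The pairs in which the copy fell and the partner rose numbered between 22, without wildtype replicate 1, and 28, without Caf40 knockdown replicate 1, over the alternatives. The 17 pairs of oxidative phosphorylation had 17 falls of copies and 15 rises of partners, the 11 pairs of the proteasome 9 and 11, and the 3 pairs of eIF3 had 2 falls and 1 rise of copies and 3 rises of partners. The copy that rose was eIF3f2 (log2 fold change 0.25, adjusted p = 0.0428), and the partners that were not called were ND-24 and ND-B14.5A. On the reference annotation, 9 of the 26 partners and 2 of the 31 copies lie on the X chromosome. Copies outside these pairs did not all fall. Among ribosomal protein genes, RpS5b and RpS5a both rose (2.43 and 1.70), as did RpL22-like and RpL22 (1.77 and 1.38), whereas RpL10Aa fell and RpL10Ab rose (-1.07 and 1.69). Rcd-1 on the X chromosome and its copy Rcd-1r went the other way, with the partner targeted and the copy higher.

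**Figure D5:**
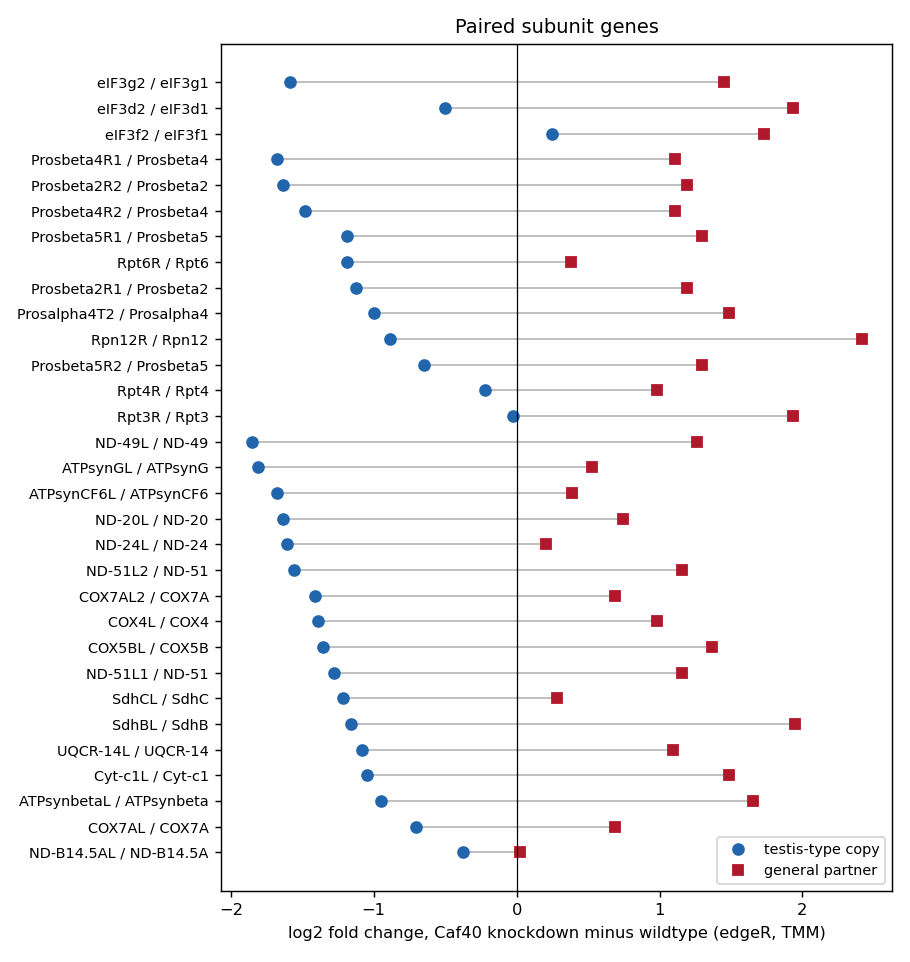
Log2 fold change, Caf40 knockdown minus wildtype, of testis-type copies (blue circles) and their general partners (red squares) in 31 pairs of subunit genes. Each line joins a pair; the copy lies left of its partner in all 31.

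In the whole lists of those complexes, testis subunits of the proteasome fell and the respiratory list had no common direction. Of 12 testis proteasome genes, 10 fell (beside 37.4% of all genes), 8 of them at least 2-fold (beside 17.5%), and 0 rose (median -1.16). Most of these 12 lay in the most abundant class, of which 63.7% fell, 24.9% at least 2-fold. Prosbeta2R2, a copy of a catalytic subunit, measured 23.5 and 28.5 RPKM in the knockdown and 71.96 and 66.2 RPKM in wildtype (a log2 fold change of -1.63 with SE 0.12 and adjusted p = 1.14e-10). Of 27 general proteasome genes, 16 rose (beside 41.1% of all genes), 6 of them at least 2-fold (beside 20.8%), and 1 fell (median 0.34). Of 84 oxidative phosphorylation genes, 28 rose and 31 fell, beside 41.1% and 37.4% of all genes. Their median was -0.01, and its sign changed under 5 of the 13 alternatives. SdhB, the iron-sulphur subunit of succinate dehydrogenase, measured 85.7 and 78.1 RPKM in the knockdown and 17.2 and 18.9 RPKM in wildtype (a log2 fold change of 1.95 with SE 0.11 and adjusted p = 2e-12). ATPsynepsilonL, a copy whose partner is not among the pairs, rose, with 203 and 169 RPKM in the knockdown and 25.1 and 31.9 RPKM in wildtype (a log2 fold change of 2.47 with SE 0.13 and adjusted p = 3.23e-13). Of 39 translation initiation genes, 22 rose and 8 fell (median 0.28, and -0.02 with equal median RPKM), read against the same shares. eIF4G1, the scaffold of cap binding, measured 69.8 and 58.96 RPKM in the knockdown and 15.8 and 16.5 RPKM in wildtype (a log2 fold change of 1.76 with SE 0.13 and adjusted p = 5.71e-11).

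Of 20 genes of messenger RNA decay other than CCR4-NOT, 11 rose, 5 of them at least 2-fold, and 3 fell (median 0.49). Of all genes 41.1% rose, 20.8% at least 2-fold, and 37.4% fell, so the 2-fold rises were near the share over all genes. Dis3, the ribonuclease of the RNA exosome, measured 22.6 and 17.9 RPKM in the knockdown and 3.44 and 3.8 RPKM in wildtype (a log2 fold change of 2.25 with SE 0.12 and adjusted p = 7.59e-13). The exosome subunit Rrp46 and the helicases tst and Mtr4 that feed the exosome rose by log2 2.46, 1.06 and 1.04. Rrp6, its nuclear exonuclease, fell, with 69.1 and 75.6 RPKM in the knockdown and 135 and 134 RPKM in wildtype (log2 fold change -1.12).

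Cell death genes moved both ways, with 5 rises and 6 falls among 15, beside 41.1% and 37.4% of all genes. Their median was -0.17, and its sign changed with limma and with library-total scaling. The effector caspase genes Dcp-1 and Drice rose, Dcp-1 with 16.5 and 13.9 RPKM in the knockdown and 4.38 and 3.14 RPKM in wildtype (a log2 fold change of 1.77 with SE 0.16 and adjusted p = 9.98e-10), and egr, the fly TNF ligand, rose by log2 1.82. grim, an inducer of apoptosis, fell, with 1.7 and 2.02 RPKM in the knockdown and 7.73 and 8.88 RPKM in wildtype (a log2 fold change of -2.37 with SE 0.19 and adjusted p = 2.35e-10). Of 16 heat shock and chaperone genes, 4 rose and 7 fell (median -0.31), read against the same shares. Hsp27, a small heat shock protein, measured 522 and 458 RPKM in the knockdown and 204 and 204 RPKM in wildtype (log2 fold change 1.03), and Hsp60C, of the Hsp60 chaperonin family, measured 522 and 638 RPKM in the knockdown and 1065 and 1037 RPKM in wildtype (log2 fold change -1.09). Hsp70Aa had no read in these libraries.

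Genes without a symbol and mitochondrially encoded genes were left out of the ranking by fold change. Of the latter, mt:ATPase6 measured 15.6 and 18.6 RPKM in the knockdown and 0.0590 and 0 RPKM in wildtype (log2 fold change 8.55). Its wildtype value rested on 1 read. mt:CoIII and mt:ND1, also mitochondrially encoded, rose by log2 3.46 and 1.03, so the size of the rise varied among these genes. Ranking rises by fold favours genes with low levels in these same wildtype libraries. Among the genes ranked, 13 of the 14 largest rises belonged to genes with a mean of at most 1.29 RPKM in wildtype testis. The other was CG16772, with 311 and 301 RPKM in the knockdown and 6.07 and 10.9 RPKM in wildtype (a log2 fold change of 4.94 with SE 0.19 and adjusted p = 9.23e-15). Caf1-180, the large subunit of chromatin assembly factor 1 that deposits histones behind replication forks, measured 10.1 and 8.997 RPKM in the knockdown and 0.386 and 0.552 RPKM in wildtype (a log2 fold change of 4.11 with SE 0.17 and adjusted p = 1.96e-14). CG15422 measured 25.8 and 32.6 RPKM in the knockdown and 1.01 and 0.546 RPKM in wildtype, and CG3348 16.1 and 12.97 RPKM in the knockdown and 0.302 and 0.163 RPKM in wildtype. CG13116, CG14545, CG5171 and hoka, a septate junction protein, rose by log2 4.62, 4.23, 4.06 and 4.38. The metallothionein gene MtnD and the secreted immune peptide gene BomS2 rose by 4.63 and 5.98, with a wide spread between the knockdown libraries (17.3 and 7.57 RPKM for MtnD and 3.22 and 14.2 RPKM for BomS2). CG31269 had 218 reads over the knockdown libraries and 1 read over the wildtype libraries, a ratio of 333 with a 95% counting interval from 59.2 to 13229. CG17177 and CG13675 rose by log2 4.53 and 4.46.

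Of these 14 largest rises, 13 differed between the Caf40 and Zeus knockdowns, beside 83% of all genes tested in that comparison. Of these, 10 were higher in the Caf40 knockdown. Claspin measured 0.155 and 0.158 RPKM, CG16772 10.8 and 6.35 RPKM and Caf1-180 0.182 and 0.395 RPKM in the Zeus knockdown libraries, all far below the Caf40 knockdown. The other 3, lower in the Caf40 knockdown than in the Zeus knockdown, were CG31269, CG17177 and CG13675, the last with 33.6 and 21.2 RPKM in the Zeus knockdown. MtnD was the 1 that did not pass the test of that difference, with 5.399 and 7.01 RPKM in the Zeus knockdown (log2 difference 0.51, SE 0.39). Both knockdowns share the wildtype libraries, so values in wildtype enter each comparison with wildtype. The genes were ranked on values of the same Caf40 knockdown libraries, which favours higher levels there, so these directions are a description.

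The largest falls left almost no reads. PH4alphaNE1, a prolyl 4-hydroxylase gene, measured 0.0465 and 0.0664 RPKM in the knockdown and 21.9 and 19.4 RPKM in wildtype, and wildtype exceeded the knockdown 356-fold with a 95% counting interval from 121 to 1727. RabX2, a Rab-family GTPase gene, measured 0.129 and 0.0923 RPKM in the knockdown and 20.4 and 18.9 RPKM in wildtype (ratio of wildtype to knockdown 183, interval 50.4 to 1515). TyrR, a tyramine receptor gene, measured 0.0681 and 0.1704 RPKM in the knockdown and 11.8 and 14.8 RPKM in wildtype, and Cyp4d1, a cytochrome P450 gene, 0.06799 and 0.316 RPKM in the knockdown and 16.5 and 17.3 RPKM in wildtype. CG33342 had 0 reads in the knockdown and 224 in wildtype, at least 48.8-fold lower if the knockdown libraries together are given a floor of 3 reads. CG31205, lncRNA:CR41352, AANATL4, AstCC, CG16727, PH4alphaNE3, CG14369 and CG31021 had between 1 and 12 reads over the knockdown libraries and between 264 and 1236 over the wildtype libraries. Mur18B, a mucin-related gene, rested on 1 library, with 0 and 0.0337 RPKM in the knockdown and 0.173 and 18.7 RPKM in wildtype, and without wildtype replicate 2 it was not called (log2 fold change -3.12, adjusted p = 0.0877). Intervals and floors cover counting error only.

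Only 5 of these 14 largest falls differed between the 2 knockdowns, each lower in the Caf40 knockdown, beside 83% of all genes in that comparison. They were CG33342, PH4alphaNE1, TyrR, CG14369 and Cyp4d1. CG14369, for example, measured 0.671 and 0.16 RPKM in the Caf40 knockdown, against 13.2 and 14.1 RPKM in the Zeus knockdown. The other 9 were not called, and each of them had at most 12 reads over the Caf40 knockdown libraries. The called genes CG33342 and CG14369 also had at most 12 reads there, and why the 9 were not called was not tested. All 14 were ranked on values of the same Caf40 knockdown libraries, which favours lower levels there. RabX2 measured 0 and 0 RPKM and CG31021 0.153 and 0.0874 RPKM in the Zeus knockdown.

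No driver-only library was analysed here, so marker genes of the genetic background were also measured. white (w), an eye-pigment transporter that also marks many transgenes, measured 70.7 and 79.6 RPKM in the Caf40 knockdown, 88.1 and 79.1 RPKM in the Zeus knockdown and 4.91 and 4.55 RPKM in wildtype. yellow (y), a cuticle pigment gene, measured 2.20 and 2.34 RPKM in the Caf40 knockdown, 0 RPKM in both Zeus knockdown libraries and 0.117 and 0.190 RPKM in wildtype. mt:CoI, a mitochondrially encoded gene, measured 18.2 and 19.4 RPKM in the Caf40 knockdown, 11.8 and 13.1 RPKM in the Zeus knockdown and 0.493 and 0.812 RPKM in wildtype. The gene y thus differed between the knockdowns (adjusted p = 1.59e-07). Construct, background and knockdown cannot be told apart with these libraries, also for genes that differed from wildtype in the Caf40 knockdown alone.

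The largest changes in amount of transcript were in other genes than the largest folds. MtnA, a metallothionein, measured 2524 and 2684 RPKM in the knockdown and 1142 and 1539.8 RPKM in wildtype (a log2 fold change of 0.73 with SE 0.15 and adjusted p = 0.000152), a call that was lost without wildtype replicate 1 (log2 fold change 0.54, adjusted p = 0.103). Jhbp5, a juvenile hormone binding protein family gene, measured 3023 and 3343 RPKM in the knockdown and 1729 and 2321 RPKM in wildtype (a log2 fold change of 0.42 with SE 0.17 and adjusted p = 0.0299), and it was not called without wildtype replicate 1 or 2, with equal median RPKM or with RLE size factors (adjusted p = 0.612, 0.139, 0.583 and 0.0912). Among the falls, CG12699 measured 2282 and 2621 RPKM in the knockdown and 3809 and 3777 RPKM in wildtype (a log2 fold change of -0.86 with SE 0.17 and adjusted p = 7.17e-05). The sperm aminopeptidase S-Lap3 measured 705 and 815 RPKM in the knockdown and 1450.1 and 1425 RPKM in wildtype (log2 fold change -1.15). S-Lap8, CG31788, CG3124 and robl62A, a dynein light chain of the roadblock family, changed by log2 -1.17, -1.40, -0.88 and -1.25. S-Lap4 fell by a log2 change of -0.81, which was not called without wildtype replicate 1 or 2 (adjusted p = 0.0716 and 0.0695). All 16 of these abundant genes, the ribosomal genes included, differed between the Caf40 and Zeus knockdowns, beside 83% of all genes tested there. The 8 that rose were higher and the 8 that fell were lower in the Caf40 knockdown. They were chosen by values of the same Caf40 knockdown libraries, which favours that direction, so this is a description.

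The testis also holds somatic cells and can carry other tissue, so markers of those cells were measured. Of 21 hub and cyst cell genes, 13 rose and 5 fell (median 0.43), beside 41.1% and 37.4% of all genes. Their summed level was 202 and 191 RPKM in the knockdown and 116 and 123 RPKM in wildtype. The defining markers did not move as one. tj, a transcription factor of early cyst cells, measured 4.61 and 3.76 RPKM in the knockdown and 1.48 and 1.94 RPKM in wildtype (log2 fold change 1.05), eya, of late cyst cells, measured 11.4 and 13.1 RPKM in the knockdown and 13.6 and 14.1 RPKM in wildtype (log2 fold change -0.40), and upd1, the hub ligand, 3.61 and 3.82 RPKM in the knockdown and 7.93 and 7.66 RPKM in wildtype (log2 fold change -1.29). These 3 were named after their values were seen. By the naming rule, dlg1, babo, put and cora rose by log2 1.77, 1.64, 1.18 and 1.10, and CadN, a neural-type cadherin of the hub, changed by -1.64. Muscle sheath genes numbered 15, with 8 rises and 1 fall (median 0.51), read against the same shares. Summed levels of the muscle sheath list were 349 and 333 RPKM in the knockdown and 282 and 281 RPKM in wildtype. Their part in the results above was not tested.

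Tissues that a dissection can carry over gave low levels. Of 19 accessory gland and duct genes, 5 were above the RPKM minimum, of which 2 rose and 3 fell, and the list summed to 61.8 and 71.5 RPKM in the knockdown and 73.9 and 73.4 RPKM in wildtype, most of it Acp95EF. Acp26Aa, a seminal fluid peptide gene, had 3 reads over the knockdown libraries and 121 over the wildtype libraries. Of 6 fat body genes tested, 3 rose and 2 fell (summed level 36.0 and 41.8 RPKM in the knockdown and 19.4 and 19.0 RPKM in wildtype). Adh, an abundant fat body enzyme, measured 12.3 and 19.2 RPKM in the knockdown and 2.69 and 4.07 RPKM in wildtype (log2 fold change 2.01). Of 4 gut and Malpighian tubule genes tested, 2 rose and 1 fell (summed level 30.5 and 26.3 RPKM in the knockdown and 21.5 and 15.9 RPKM in wildtype), and Jon99Ciii, a gut protease gene, was at 0. Amy-p, a digestive amylase gene, measured 16.7 and 14.3 RPKM in the knockdown and 4.11 and 3.12 RPKM in wildtype, and its tandem partner Amy-d can share reads with it. Of 6 haemocyte and neuron genes, 0 rose and 3 fell (summed level 26.5 and 20.3 RPKM in the knockdown and 26.1 and 22.4 RPKM in wildtype), and 2 of the 3 falls, Hml and Pxn, had overlapping groups and were not called with DESeq2 (adjusted p = 0.191 and 0.0691), with limma (adjusted p = 0.256 and 0.412) or without single libraries.

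Some gene families with few members on in the testis also differed. Of 8 antimicrobial peptide genes tested of 19 matched, 6 rose, all at least 2-fold, and 0 fell. Of all genes 41.1% rose, 20.8% at least 2-fold, and 37.4% fell, 17.5% at least 2-fold. AttB and Dro are secreted peptides against bacteria. AttB measured 4.905 and 5.98 RPKM in the Caf40 knockdown, 3.83 and 2.98 RPKM in the Zeus knockdown and 0.454 and 0.981 RPKM in wildtype. Dro measured 3.299 and 2.64 RPKM in the Caf40 knockdown, 3.47 and 1.52 RPKM in the Zeus knockdown and 0.21 and 0.17 RPKM in wildtype. BomS3, a Bomanin peptide gene, measured 6.702 and 13.01 RPKM in the Caf40 knockdown and 1.01 and 2.17 RPKM in wildtype. All of these levels were below 15 RPKM, and members that passed the filter only through the knockdown libraries, or only through wildtype, had to be higher there, so counts over these families are a description. Of 29 chemosensory receptor genes tested of 166, 5 rose and 20 fell, 12 of the falls at least 2-fold. These counts are read against the same shares of all genes. Or88a, an odorant receptor, rose, with 38.8 and 29.2 RPKM in the knockdown and 2.64 and 3.103 RPKM in wildtype (a log2 fold change of 3.32 with SE 0.16 and adjusted p = 9.6e-14), whereas Ir68b, an ionotropic receptor, fell, with 0.636 and 0.483 RPKM in the knockdown and 9.54 and 11.2 RPKM in wildtype (a log2 fold change of -4.46 with SE 0.21 and adjusted p = 1.33e-13). Of 25 Rab GTPase genes tested of 30, 14 rose and 6 fell (median 0.35), beside 41.1% and 37.4% of all genes. Among the rises was Rab6, of Golgi transport, with 42.6 and 39.4 RPKM in the knockdown and 9.18 and 10.8 RPKM in wildtype (log2 fold change 1.81). Of 7 metallothionein and copper genes, 4 rose and 1 fell (median 0.47). MTF-1, the metal-responsive transcription factor, rose by log2 1.08, and Ctr1C, a copper importer, fell, with 12.8 and 14.98 RPKM in the knockdown and 34.1 and 29.1 RPKM in wildtype (log2 fold change -1.41).

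By chromosome arm, the median log2 fold change was 0.23 for the 1470 genes on X, of which 46.2% rose and 32.8% fell, and 0.47 for the 55 genes on chromosome 4, of which 65.5% rose and 9.09% fell. Medians on 2L, 2R, 3L and 3R lay between -0.09 and 0.09. Longer transcripts were somewhat more often higher in the knockdown. Among the 2568 genes with exon lengths of up to 1029 bases, 32.2% rose and 43.3% fell, and among the 2561 genes of 2880 bases and above 48.5% rose and 31.4% fell. Genes with exon-junction reads in any library had a median of 0.14, and the others of -0.04. These shares are descriptions, as genes of a class share expression level and stage.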

How the data were processed

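The authors deposited whole-number read counts per gene, exon lengths and RPKM, per the file headers. Each deposited RPKM value matched the gene's reads scaled by exon length and mapped reads to within 1e-08. Reads were aligned with Bowtie to dm3, per the submitters' processing notes; the aligner version, annotation release and handling of multi-mapping reads are unknown (not given in the sources used here). Symbols and chromosome arms came from BDGP6 tables (84.7% of identifiers matched), so no coordinates are given. Promoter sequence was not used here.

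The deposited counts were tested with edgeR 4.0.16 in R 4.3.3 (TMM factors 0.918 to 1.11, common biological coefficient of variation 0.0858, quasi-likelihood, two-sided, no block), on genes with mean RPKM of at least 1. Each SE is the fitted log2 fold change divided by the root of its F statistic. Differences between knockdowns came from a fit of all 6 libraries. An exact permutation test of 2 against 2 cannot go below 0.333. On simulated counts for 10248 genes the test recovered 95% of 2-fold and 100% of 4-fold changes, with 7 false calls. The simulation changed 100 genes by each fold, as many up as down, all among genes with more reads, with 1 common spread. In the real comparison 78.5% of genes were called, so the simulated rates do not carry over to it. Replicates differed beyond sampling noise (chi-square per degree of freedom 13.8 in the Caf40 knockdown and 4.96 in wildtype).

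Genes are named by rule: Rcd-1 and Rcd-1r; the 14 largest rises and falls by fold among called genes whose group means reach 5 RPKM on at least one side without overlap; the 8 largest each way in mean RPKM; and up to 5 members with the smallest p of each of 33 lists. The rankings by fold and by mean RPKM took only genes with a symbol that are not mitochondrially encoded. Members and lists were chosen with earlier results of these data known. The enzyme gene qm and 3 regulators of Rab3 were taken off the ribosomal and Rab lists after their values were seen, as they are not members of those families. Alternatives were library-total, same-median and RLE scaling, DESeq2 1.42.0, limma 3.58.1 on log2(RPKM + 1), other RPKM filters, a shared spread, a replicate block and each library left out.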

Additional observations from a re-analysis of the deposited data

Results flagged for a closer look

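Reads on exon junctions were not used in the comparison of genes. They made up 2.31% and 2.30% of the gene reads in the Caf40 knockdown libraries, above the 2.06% and 2.07% in the wildtype libraries. The difference was not tested.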

How the results depend on the processing

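The direction and call of Rcd-1 and Rcd-1r held under all 13 alternatives. With one library left out, the number of genes called lay between 6710 and 8275, with 3599 to 4251 rises and 3111 to 4024 falls. At least 2-fold, 1977 to 2244 rose and 1555 to 2044 fell. Rcd-1 then lay between -2.25 and -2.18 and Rcd-1r between 2.01 and 2.24. DESeq2 called 7502 genes and RLE size factors 8027. With limma on log2(RPKM + 1) 1100 genes fell at least 2-fold, against 1791 in the test used; the cause was not tested. Deviations of same-numbered knockdown and wildtype libraries correlated at -0.04 across genes. With 2 libraries per group this cannot show whether they share a batch. The replicate block gave 7836 called genes and lost the call of Jhbp5 (adjusted p = 0.144). Of 244 single-gene results, 11 changed their call under some alternative and 0 reversed. They were Acp95EF, Col4a1, Ctr1A, Hml, Jhbp5, Lsp2, MtnA, Mur18B, Pxn, S-Lap4 and vkg, for which the cause was not tested either. The medians of 28 of 33 lists kept their sign, the exceptions being CCR4-NOT, cell death, gut, oxidative phosphorylation and translation initiation. Folds of genes with fewer than 5 reads in a group are uncertain at this depth.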

Other observations

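Further gene groups were listed after the values were seen and are described without a test. CCT is a chaperonin that folds actin and tubulin. All 7 of its genes listed here rose at least 2-fold in the Caf40 knockdown, beside 20.8% of all genes (median log2 fold change 1.38). Their summed level was 989.8 and 850.4 RPKM in the knockdown and 286 and 308 RPKM in wildtype. Of 27 RNA polymerase subunit genes, 22 rose and 1 fell (median 1.03), beside 41.1% and 37.4% of all genes. The 5 translation elongation factor genes listed here all rose (median 1.17). Of 20 nucleoporin genes, 15 rose and 2 fell (median 0.87), read against the same shares. Of 11 Bomanin peptide genes, 9 were above the RPKM minimum, but BomS1, BomS2, BomS4, BomS5 and BomBc2 averaged at most 0.281 RPKM in wildtype and so passed only through the knockdown libraries, where they had to be higher.

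Of 21 tested genes of the vacuolar ATPase, a proton pump, 5 rose and 12 fell, beside 41.1% and 37.4% of all genes. Their median was -0.78. Vha100-3 measured 30.02 and 38.9 RPKM in the knockdown and 114 and 106 RPKM in wildtype (log2 fold change -1.90), and Vha16-5 measured 17.6 and 18.1 RPKM in the knockdown and 51.3 and 47.1 RPKM in wildtype (-1.69). Vha36-1 rose, with 69.4 and 57.1 RPKM in the knockdown and 23.6 and 23.9 RPKM in wildtype (1.17). Of 70 cuticle protein genes, 11 were above the RPKM minimum, of which 10 fell and 1 rose, read against the same shares. Members that passed only through wildtype had to be lower in the knockdown. Cpr65Ec measured 0.404 and 0.482 RPKM in the knockdown and 6.51 and 6.72 RPKM in wildtype, and Cpr92A, the 1 that rose, 14.8 and 17.6 RPKM in the knockdown and 4.15 and 4.05 RPKM in wildtype.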
